A study of Bos taurus with 12 samples.

Results

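BL against 2CB compares single cells of 2-cell cattle embryos by the fate of their sister cells, on 6 of the 12 two-colour arrays of the study. Each embryo was split in 2, one blastomere was frozen, and its sister was grown alone in vitro to day 7. BL stands for frozen blastomeres whose sisters became blastocysts, and 2CB for those whose sisters never cleaved. The other 6 arrays set BL against a class named 8CB, whose sister cells, in spite of that name, are described in the design text as having stopped at the 4-cell stage. They share the fit's estimate of spread and otherwise enter only where stated. These 6 arrays were chosen by their labels alone: 3 carry 2CB in Cy5 and BL in Cy3, and 3 carry BL in Cy5 and 2CB in Cy3, with replicate numbers 1 to 3 in each orientation.

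Neither class carried a genetic change or received an agent; the classes differ in the fate of the sister cell, so the frozen cell's own fate was not observed. Per the labels, each class was sampled as 3 independent pools, each holding 15 blastomeres, and their total RNA was amplified before dye was coupled to it. A pool mixes embryos, and a ratio from it cannot show how single blastomeres varied. The deposited tables hold 1 log ratio per probe and array, so fewer transcripts per cell and fewer cells carrying them cannot be told apart, and the cell type could not be checked as a level of its markers. After 2 rows were set aside, 43793 probes were tested, of which 21790 carried a symbol, covering 15216 genes. Precision is set by how few arrays there are: in the fit described next, the median 95% confidence interval of a log2 ratio reached 0.15 to either side.

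At the 2-cell stage the bovine embryo runs mainly on RNA and protein that the oocyte stored. The embryo's own genome becomes broadly active only at a later cleavage stage, and until then stored transcripts are translated, lengthened or shortened at their poly(A) tails, and degraded. Differences between blastomeres at this stage are therefore looked for in stored transcripts, among them those for translation, energy supply, protein turnover, the centrosome and spindle, and protection from oxidation, which is named in the study's title.

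The sign of the ratios was handled in 2 ways, because neither the labels nor the table says which class is the numerator. In the first, the values were averaged over both dye orientations as deposited. This takes the swapped arrays as already turned to one direction, and results are given as the positive or the negative side, without saying which class is higher. In the second, arrays with BL in Cy3 had their sign turned before averaging. If the deposited values are Cy5 over Cy3, a positive value in this reading means higher in BL than in 2CB. The first reading takes the mean of the orientations and the second their difference, divided by 2. A gene can be nonzero in both when its orientations share a sign but not a size. As measures of the classes, however, the readings exclude each other. If the deposited values are Cy5 over Cy3, the class difference cancels in the first reading and the dye difference remains. If the swapped arrays were already turned, the second reading holds the dye difference instead.

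The arrays themselves carried both patterns. Across probes, which are not independent replicates, deposited columns of one orientation correlated at 0.24 to 0.66 (6 pairs). Columns of opposite orientation with the same replicate number correlated at 0.05 to 0.49 (3 pairs), and those with different numbers at -0.10 to 0.20 (6 pairs). With the mean of each orientation removed per probe, the swapped arrays of replicates 1, 2 and 3 correlated at 0.40, 0.47 and 0.25 as deposited. Which sign holds was not tested. The columns with BL in Cy3 were most often written with 9 decimals and those with BL in Cy5 with 6, so the 2 sets differ in number format along with the dye. Medians of the 6 columns lay within 0.01 of 0 and their SDs between 0.30 and 0.36, with no column apart from the others in these measures.

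As deposited, genes of several cell functions led by p-value. On the positive side stood the centriole protein POC1A, the aldose reductase AKR1B1, the RNA-binding proteins SFPQ and RBM42, the cell cycle repressor E2F4, the exocyst subunit EXOC8 and the mitochondrial ribosomal protein MRPL11. On the negative side stood the R-spondin receptor LGR4, the retromer subunit VPS26A, the deubiquitinase BRCC3, the mitochondrial transport GTPase RHOT1, the small GTPase RAP1B and LYSMD2. The 24 genes named in this way, 12 a side, each had 1 side on all 6 arrays, as the rule for naming them required, with sizes from 0.34 to 1.25 on the log2 scale. Their adjusted p-values lay from 0.064 to 0.076 in limma, so none passed 0.05.

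LYSMD2, which encodes a LysM-domain protein, lay at -1.21, -1.28 and -0.78 on the arrays with BL in Cy3 and at -1.39, -1.49 and -1.34 on those with BL in Cy5. All 6 arrays were on the negative side. The fitted ratio was -1.25 ± 0.11 (log2, SE, n = 3 averaged ratios), a 2.37-fold difference (adjusted p = 0.064 in limma).

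AKR1B1, which reduces glucose to sorbitol and also reduces aldehydes, lay at 1.32, 1.21 and 0.70 in the first orientation and at 1.06, 0.98 and 1.02 in the second. All 6 values were positive, and its fitted ratio was 1.05 ± 0.11 (adjusted p = 0.075). A second AKR1B1 probe lay at 0.57 ± 0.10, also with all 6 arrays positive.

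LGR4, which potentiates Wnt signalling when bound by R-spondins, lay between -1.17 and -0.74 on the 6 arrays, and both orientations covered much the same range. Its fitted ratio was -0.88 ± 0.07. A second of its 3 probes gave -0.80 ± 0.12, whereas the last lay at 0.01 ± 0.04, so its probes did not all share a side. BRCC3, a deubiquitinase of K63-linked chains in the BRCA1-A and BRISC complexes, lay between -0.98 and -0.71 on all 6 arrays at one probe (-0.80 ± 0.07) and at 0.04 ± 0.05 by its other probe. CUTC, linked to copper handling, was the third such gene: 1 probe lay at 0.41 ± 0.05, one at 0.00 ± 0.04 and one at -0.53 ± 0.13.

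POC1A, needed for centriole assembly, lay at 1.00, 1.07 and 0.60 with BL in Cy3 and at 0.49, 0.70 and 0.57 with BL in Cy5. Every array was positive, and the fitted ratio was 0.74 ± 0.06. E2F4, a repressor of cell cycle genes in quiescent cells, lay at 0.63, 0.72 and 0.61 in the first orientation and at 0.34, 0.29 and 0.06 in the second. Here the orientations did not overlap although all 6 values were positive, and the fitted ratio was 0.44 ± 0.05. GSTCD, which carries a glutathione S-transferase domain, lay between -0.84 and -0.11 (-0.47 ± 0.03), and RHOT1, which couples mitochondria to motors on microtubules, between -0.51 and -0.28 (-0.42 ± 0.04).

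The plot of the deposited ratios by array shows these 24 genes.

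**Figure D1:**
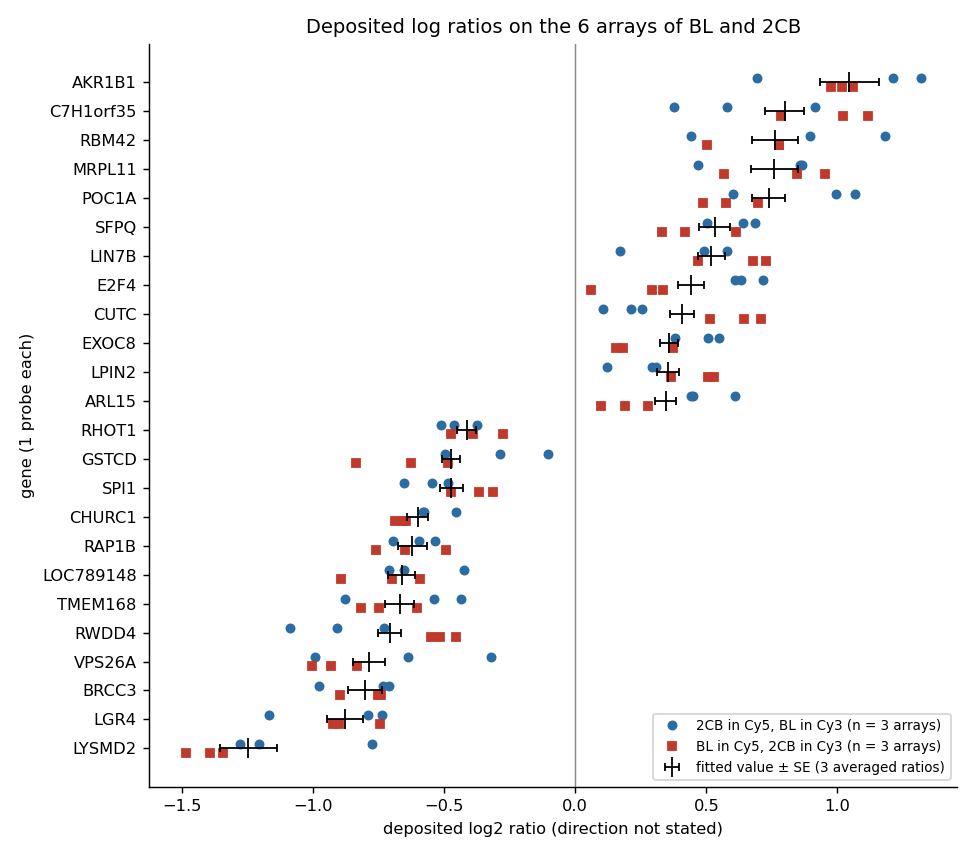
Deposited log2 ratios (x axis) of the 24 genes with the smallest p-values as deposited, 12 a side (y axis, 1 probe each). Circles are the 3 arrays with BL in Cy3, squares the 3 arrays with BL in Cy5, and the black bar is the fitted ratio ± SE. Every point of a gene lies on 1 side of 0, which the rule required, and LYSMD2 (-1.25) and AKR1B1 (1.05) lie farthest out.

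Several genes with a single probe were larger but varied more between replicates. UBE2L3, a ubiquitin-conjugating enzyme, lay at 1.95, 2.12 and 1.02 with BL in Cy3 and at 1.58, 1.93 and 1.52 with BL in Cy5. Both orientations were positive throughout, replicate 3 was lowest in each, and the fitted ratio was 1.69 ± 0.25 (adjusted p = 0.094). Of 52 probes over 1 in size as deposited, 46 were on the positive side, and 32 carried a symbol. After turning, 56 of 62 probes of that size were positive too.

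NR1H2, the oxysterol receptor LXR beta, had a fitted ratio of 1.52 ± 0.35 with arrays from 0.61 to 2.10. SREK1, a splicing regulator, lay at 1.31 ± 0.24, BSG, a chaperone of lactate transporters, at 1.22 ± 0.25, and the G protein subunit GNAI2 at 1.17 ± 0.27. On the other side, PRXL2A, a peroxiredoxin-like protein, lay at -1.26 ± 0.32, the centromere protein CENPP at -0.96 ± 0.20 and LEPROT at -0.86 ± 0.22. The stress kinase MAPK14, with 3 probes, lay at -0.96 ± 0.14 by the named one and at -0.27 ± 0.11 and -0.67 ± 0.12 by the others. None of these passed 0.05 (adjusted p from 0.094 to 0.165), and each kept 1 side on all 6 arrays.

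Genes with several probes were measured in a way that does not rest on 1 probe, although probes of a gene share the same RNA pools and dyes. As deposited, 119 of 4034 such genes (2.95%) had all probes on 1 side with an unadjusted p under 0.05, 69 of them positive. In 86 genes, probes with an unadjusted p under 0.05 lay on both sides. Both probes of SRRM2, a scaffold of nuclear speckles, lay at 0.86 ± 0.15 and 1.01 ± 0.14, with 12 of 12 values positive over probes and arrays. The 2 probes of the translation helper EIF4H lay at 0.46 ± 0.07 and 1.06 ± 0.23, and those of the proteasome ATPase PSMC3 at 0.45 ± 0.08 and 0.69 ± 0.11. For the splicing factor U2AF2 they lay at 0.33 ± 0.07 and 0.66 ± 0.13, and for SDHC, a membrane anchor of succinate dehydrogenase, at 0.35 ± 0.08 and 0.39 ± 0.09.

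On the negative side, the 3 probes of RAP1B, a GTPase of cell adhesion, lay at -0.78 ± 0.19, -0.62 ± 0.06 and -0.40 ± 0.10. Those of CEP120, which acts in centriole elongation, lay at -0.34 ± 0.06, -0.41 ± 0.08 and -0.48 ± 0.10. ZNF280B gave -0.71 ± 0.08 and -0.68 ± 0.09 by its probes, and the oxygen-sensing hydroxylase EGLN1 gave -0.34 ± 0.08 and -0.54 ± 0.11. For RTN4, an ER-shaping protein, the 3 probes lay at -0.19 ± 0.04, -0.26 ± 0.05 and -0.69 ± 0.12, but the arrays with BL in Cy3 alone put the middle one at 0.04, on the other side.

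**Figure D2:**
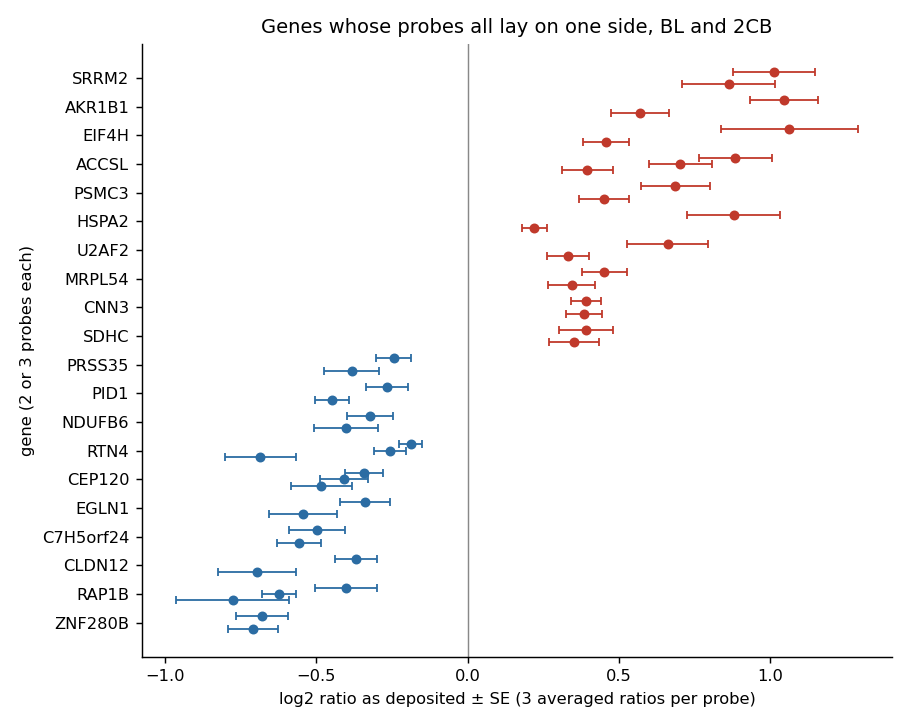
Fitted log2 ratios as deposited ± SE (x axis) for each probe of 20 genes with 2 or 3 probes, the 10 a side that led among the 119 whose probes all lay on 1 side with an unadjusted p under 0.05, ordered by their mean (y axis). Probes of SRRM2, AKR1B1 and EIF4H reach 1.01 to 1.06, whereas those of HSPA2 are 0.22 and 0.88.

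Over all probes as deposited, none passed an adjusted p of 0.05 in limma (0 probes, 0%), and 336 lay under 0.10 (0.767%), 99 positive and 237 negative. Before adjustment 7249 probes (16.6%) had p under 0.05, and 5555 (12.7%) had 1 side on all 6 arrays. The labels number the replicates 1 to 3, and as deposited these numbers paired the averaged ratios of the 2 comparisons by their deviations. With that number as a random block across the comparisons, 0 passed (16.6% before adjustment). In another fit the 12 arrays were entered singly, with a coefficient for dye orientation and a random block joining the swapped arrays of one number. There 1925 probes passed 0.05, 710 positive and 1215 negative, and all 24 named genes were among them (adjusted p from 0.0011 to 0.032). These 24 were picked by small p-values on the same arrays, so their passing is not separate support. Entering the arrays singly added no pools. Without replicate 3, 8.76% of probes reached an unadjusted p under 0.05. With only the arrays that had BL in Cy5, 4220 probes passed 0.05, and with only those that had BL in Cy3, 0 passed, with 19.5% at an unadjusted p under 0.05. Within a single orientation, class and dye cannot be told apart.

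Turned by the labelled dyes, other genes led. On the side that would be higher in BL stood the N-terminal acetyltransferase subunit NAA35, the spliceosomal protein ZCRB1, the arginine sensor CASTOR1, the mitotic kinesin KIF18B, the mitochondrial thioredoxin TXN2 and the complex I subunit NDUFS7. On the side that would be lower stood the ubiquitin ligases TRIM6 and UHRF2, the oxidoreductases PDIA6 and QSOX2 and the chromatin protein HP1BP3. Not all probes of PDIA6 and QSOX2 shared that side. The other probes of PDIA6 lay at -0.03 ± 0.05 and 0.01 ± 0.10, and those of QSOX2 at -0.14 ± 0.05 and 0.11 ± 0.05. Those of HP1BP3 lay at -0.09 ± 0.05 and -0.27 ± 0.05. The 24 genes named by this reading had adjusted p-values from 0.0031 to 0.012 in limma and sizes from 0.27 to 1.86. In all of them, as the rule required, the deposited sign was opposite between orientations on all 6 arrays.

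NAA35, which helps acetylate the first residue of proteins, was deposited at -1.76, -1.54 and -1.35 with BL in Cy3 and at 2.41, 1.88 and 2.25 with BL in Cy5. The orientations lay on opposite sides of 0 and far apart. Turned, the ratio was 1.86 ± 0.11 (SE, n = 3), a 3.64-fold difference (adjusted p = 0.0031). Its second probe lay at -0.07 ± 0.08, so the other probe of NAA35 did not share the difference.

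ZCRB1, a protein of the minor spliceosome, was deposited at -1.27, -1.01 and -0.66 with BL in Cy3 and at 1.94, 1.57 and 1.95 with BL in Cy5. It was 1.40 ± 0.07 once turned, and 0.08 ± 0.06 by its second probe. KIF18B, a plus-end kinesin of mitosis with a single probe, lay between -0.76 and -0.64 in the first orientation and between 1.15 and 1.60 in the second, and its turned ratio was 1.06 ± 0.07.

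TXN2, a thioredoxin of mitochondria, was measured by 6 probes. The named probe was deposited at -0.60, -0.54 and -0.44 with BL in Cy3 and at 1.18, 1.00 and 1.33 with BL in Cy5, and turned to 0.85 ± 0.05. Its other probes lay from 0.07 to 1.22, all positive, with an unadjusted p under 0.05 for 2 of them. NDUFS7, a core subunit of complex I, turned to 0.71 ± 0.05, and its other 3 probes lay at 0.04 ± 0.06, 0.50 ± 0.03 and 0.51 ± 0.07.

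TRIM6 lay at 0.13, 0.03 and 0.46 in the first orientation and at -2.40, -1.99 and -1.77 in the second. It turned to -1.13 ± 0.12 (adjusted p = 0.0065), yet the arrays with BL in Cy3 lay no more than 0.46 from 0, and its mean as deposited was -0.92 ± 0.26. UHRF2, which reads modified DNA and histones, lay at 1.33, 0.82 and 1.07 against -0.84, -0.33 and -1.55, and turned to -0.99 ± 0.13.

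**Figure D3:**
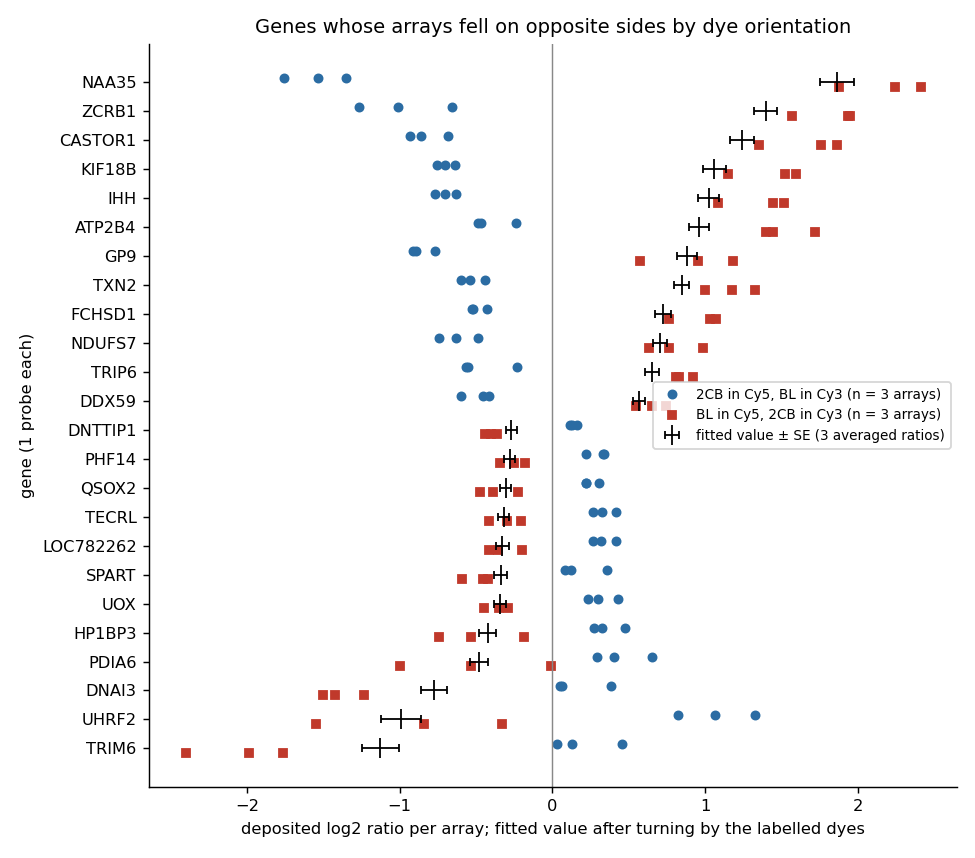
Deposited log2 ratios (x axis) of the 24 genes with the smallest p-values after turning by the labelled dyes (y axis, 1 probe each). Circles are the 3 arrays with BL in Cy3, squares the 3 arrays with BL in Cy5, and the black bar is the ratio after turning ± SE; the 2 orientations lie on opposite sides of 0, most widely for NAA35 (turned ratio 1.86).

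By this reading, the genes whose probes all shared a side with an unadjusted p under 0.05 numbered 163 of 4034 (4.04%), 90 of them positive. More genes, 258, had probes past that p on both sides. The bile acid receptor GPBAR1 gave 0.88 ± 0.10 and 0.98 ± 0.11 by its probes. The S and M phase cyclin CCNA2 gave 0.36 ± 0.07 and 0.38 ± 0.07, and the vacuolar ATPase accessory subunit ATP6AP1 gave 0.24 ± 0.04 and 0.40 ± 0.04. Smaller values stood on the negative side: carbonic anhydrase CA1 at -0.24 ± 0.04 for both probes, the release factor ETF1 at -0.21 ± 0.05 and -0.15 ± 0.03, and the growth factor FGF2 at -0.21 ± 0.05 and -0.17 ± 0.04. C7H5orf24 was the one gene named by its probes in both readings (-0.50 ± 0.09 and -0.56 ± 0.07 as deposited, -0.25 ± 0.06 and -0.26 ± 0.05 turned). All 6 arrays were negative at both of its probes, and those with BL in Cy5 lay lower.

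Turned by the labelled dyes, 3562 probes passed an adjusted p under 0.05 (8.13%), 2028 positive and 1534 negative, and 12789 reached an unadjusted p under 0.05 (29.2%). With the replicate number as a random block across the comparisons 3455 passed, and in the fit of 12 single arrays with an orientation coefficient and a block within comparisons 6176 did, 3357 positive and 2819 negative. After quantile normalization 2218 passed, 1493 positive and 725 negative. The calls depended on single replicates: 225 passed without replicate 1, 0 without replicate 2 (13.1% at an unadjusted p under 0.05) and 1295 without replicate 3. Among the 24 named genes 13, 0 and 24 passed in these fits.

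Of the 3562 probes called after turning, 603 (16.9%) reached an unadjusted p under 0.05 as deposited, beside 16.6% of all probes. Of the 336 probes at an adjusted p under 0.10 as deposited, 25 (7.44%) were called after turning, beside 8.13% of all probes. Both shares were close to those of all probes. Over all probes the ratios of the 2 readings correlated at 0.18, as a description over probes that share arrays. Of the 2088 genes with exactly 2 probes, the probes' ratios correlated at 0.28 as deposited and at 0.13 after turning. They shared a side in 59.8% and 53.9% of these genes. Among genes of the smallest p-values with further probes, some other probe lay on the opposite side for 3 of 13 as deposited and for 7 of 14 after turning. All probes shared a side for 10 of 13 and 7 of 14. Over all 4034 genes with 2 or more probes, they did so in 48.6% and 44.8%.

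**Figure D4:**
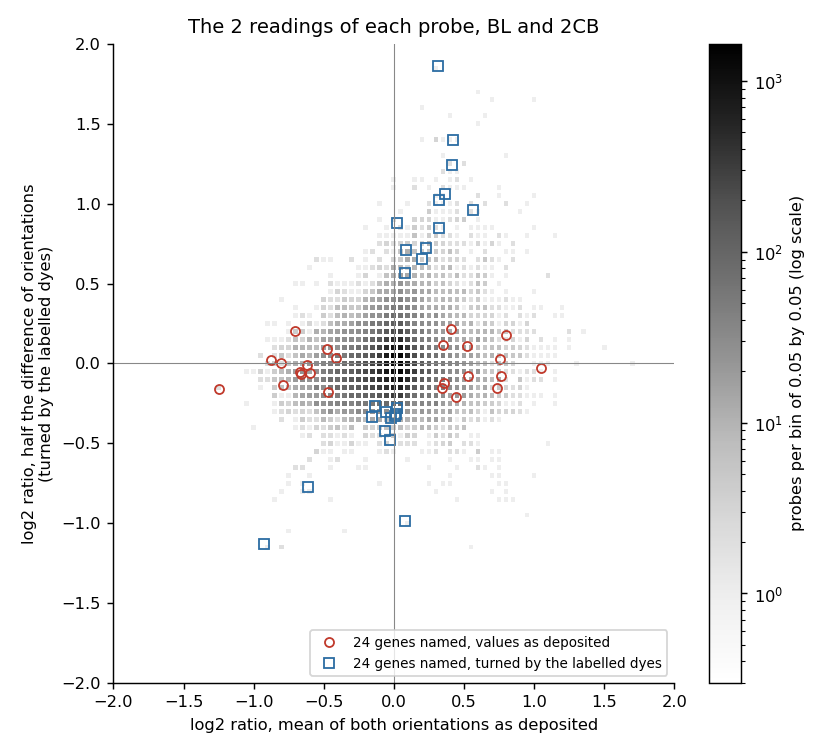
Log2 ratio of each probe as deposited (x axis) against its ratio turned by the labelled dyes (y axis), as numbers of probes in bins of 0.05 by 0.05 on a log grey scale. Circles and squares mark the 24 genes named in each reading: the circles extend along the x axis to -1.25 and 1.05, and the squares along the y axis to -1.13 and 1.86.

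Groups of genes were described by how many measured members reached an unadjusted p under 0.05, beside 2743 of all 15216 genes (18%) as deposited, 8.54% positive and 9.48% negative, and 4304 (28.3%) after turning, 13.3% positive and 15% negative. The value of a gene was the mean of its probes. No gene of any of the 34 lists passed an adjusted p under 0.05 as deposited, nor did any of all genes, where the smallest adjusted p was 0.091. After turning, 907 genes passed (5.96%), 602 of them positive. As deposited, 29 of 34 lists had a larger share than all genes, and after turning 12 of 34. Shares depended on single replicates: without replicate 3, 9.75% of all genes reached that p as deposited and 19 of 34 lists moved by over 1.5 times, and without replicate 2, 12.6% did after turning and 31 of 34 lists moved by as much. The share of all genes itself moved by over 1.5 times in both fits. Lists above all genes then numbered 28 of 34 as deposited and 16 of 34 after turning.

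Genes of the centriole and centrosome, which organise the spindle, had the largest share as deposited: 18 of 42 (42.9%), 6 positive and 12 negative, with a median of -0.13 beside 0.01 over all genes. CEP120 lay at -0.41 ± 0.06, CENPJ, a regulator of centriole length, at -0.23 ± 0.06 and the augmin subunit HAUS6 at -0.56 ± 0.15, opposite to POC1A. Without replicate 3 only 5 of 42 (11.9%) reached that p, 4 positive and 1 negative, so neither the share nor the lean held. After turning, 8 of 42 (19%) did, among them the gamma-tubulin complex gene TUBGCP2 at 0.41 ± 0.09 (adjusted p = 0.049).

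Of kinetochore proteins and spindle motors, 5 of 69 were positive and 13 negative as deposited, and none of the 4 with the smallest p-values was positive. The microtubule depolymerase KIF2A lay at -0.44 ± 0.07 and was negative on 6 of 6 arrays, from -0.57 to -0.24. The cytokinesis kinesin KIF23 lay at -0.33 ± 0.07 and the checkpoint kinase BUB1 at -0.36 ± 0.09. Without replicate 3 the list held 4 positive and 7 negative. Of cyclins and cell cycle switches, 8 of 64 were positive and 4 negative, a share of 18.8%. ENSA, an inhibitor of the mitotic phosphatase PP2A, lay at 0.31 ± 0.05 and the anaphase-promoting complex activator FZR1 at 0.44 ± 0.08, while the complex's subunit ANAPC4 lay at -0.59 ± 0.09.

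Of genes for DNA replication, 6 of 56 were positive and 12 negative as deposited, but 5 and 3 without replicate 3. The helicase subunit MCM5 lay at 0.55 ± 0.12 and topoisomerase TOP2A at -0.33 ± 0.08. Of DNA damage and repair genes, 4 of 62 were positive and 12 negative, with a median of -0.07. In all, 10 of 62 were past that p without replicate 1 (2 positive, 8 negative) or without replicate 3 (4 positive, 6 negative). The lean was thus slight without replicate 3. The double-strand break sensor NBN lay at -0.45 ± 0.10 and the p53 inhibitor MDM2 at -0.29 ± 0.06. After turning, repair genes held more negative than positive members, 16 against 4 of 62 (5 against 1 without replicate 2, 11 against 2 without replicate 3). XRCC6 of the Ku complex lay at -0.29 ± 0.06, the helicase ERCC3 at -0.28 ± 0.06 and the repair scaffold XRCC1 at -0.21 ± 0.05 (adjusted p from 0.040 to 0.049 in limma).

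Stored transcripts for protein synthesis went both ways as deposited. Translation factors held 12 positive and 7 negative of 49 (38.8%), and mitochondrial ribosomal proteins 16 positive and 12 negative of 77 (36.4%). In the first list GSPT1, a release factor, lay at 0.72 ± 0.12 with all arrays between 0.53 and 0.87, and EIF4E3, a cap-binding protein, lay at -0.42 ± 0.07. In the second MRPL11 lay at 0.76 ± 0.09, MRPL51 at -0.49 ± 0.06 and MRPL33 at -0.54 ± 0.10. Without replicate 3 the translation factors held 15 of 49 (30.6%) and the mitochondrial ribosomal proteins 16 of 77 (20.8%). After turning, these lists stood at 8 of 49 (16.3%) and 18 of 77 (23.4%), below all genes (4 and 8 members without replicate 2), with MRPS11 at 0.39 ± 0.05 (adjusted p = 0.015).

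Genes for the tails and decay of maternal mRNA, which time the use of stored messages, held 8 positive and 10 negative of 69 as deposited, and 6 and 4 without replicate 3. The 4 with the smallest p-values were all negative. The cleavage and polyadenylation factors CPSF7 and CPSF2 lay at -0.61 ± 0.08 and -0.29 ± 0.04, the decapping factor DCP1A at -0.30 ± 0.05 and the tail regulator CPEB3 at -0.33 ± 0.05. Each was negative on all 6 arrays, CPSF7 from -0.90 to -0.43. After turning, 10 of 69 (14.5%; 6 without replicate 2) reached an unadjusted p under 0.05 and none passed the adjusted threshold. Splicing factors held 12 positive and 7 negative of 71 as deposited (7 and 3 without replicate 2, 10 and 12 in the fit of 12 single arrays), led by SFPQ and RBM42, with the splicing activator SRSF9 at 0.37 ± 0.06. After turning, SF3A2 of the U2 particle lay at 0.65 ± 0.07 (adjusted p = 0.011).

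Oocyte and maternal-effect genes, whose products the egg supplies, held 12 positive and 4 negative of 48 as deposited (33.3%). Without replicate 2 they held 7 and 6, so the lean did not hold there. Without replicate 3 they held 11 of 48 (22.9%), 9 positive and 2 negative. The oocyte linker histone H1-8 lay at 0.69 ± 0.17 and the heat shock factor HSF1 at 0.35 ± 0.09, while BRWD1, a chromatin regulator of meiosis in mice, lay at -0.35 ± 0.08. MOS, the kinase that holds eggs in metaphase, lay at 0.51 ± 0.13. It was deposited at 0.23, 0.08 and -0.41 with BL in Cy3 and at 1.27, 0.81 and 1.07 with BL in Cy5, and its turned ratio was 0.54 ± 0.13 (adjusted p = 0.059). TLE6, of the subcortical maternal complex, had a turned ratio of 0.79 ± 0.08 (adjusted p = 0.0098), and PADI6 of the same complex one of -0.21 ± 0.05, just outside the threshold (adjusted p = 0.0501). For genome activation and early zygotic genes, 3 were positive and 9 negative of 46 as deposited, and 0 positive and 12 negative after turning (0 and 3 without replicate 2). The cyclic AMP response factor ATF1 lay at -0.54 ± 0.09 and the insulator protein CTCF at -0.45 ± 0.11 as deposited.

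Lists of protein folding and ubiquitin transfer had shares above all genes as deposited, and the proteasome did not. Chaperones held 12 positive and 14 negative of 75 (34.7%), ubiquitin ligases 4 and 9 of 40 (32.5%), and conjugating enzymes and deubiquitinases 7 and 10 of 54 (31.5%). Without replicate 3 the chaperones held 11 and 4, and the conjugating enzymes and deubiquitinases 4 and 5. HSPA4 lay at -0.57 ± 0.09, the ER ubiquitin ligase SYVN1 at -0.53 ± 0.09 and the HSP90 co-chaperone CDC37 at 0.29 ± 0.05. RNF40, a ligase for histone H2B, lay at -0.41 ± 0.05, and FBXO5, an inhibitor of the anaphase-promoting complex, at 0.47 ± 0.09. Of the proteasome 6 were positive and 1 negative of 43 (16.3%; 7 and 5 in the fit of 12 single arrays), with PSMD4, a ubiquitin receptor, at 0.36 ± 0.05. Another receptor, ADRM1, lay at 0.72 ± 0.11 as deposited and at -0.28 ± 0.04 after turning (adjusted p = 0.020). Its arrays stood at 1.00, 1.26 and 0.74 with BL in Cy3 and at 0.58, 0.53 and 0.24 with BL in Cy5, all positive and higher in the first.

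After turning, the small heat shock protein HSPB1 lay at 0.41 ± 0.04, the co-chaperone DNAJB1 at 0.47 ± 0.06, the mitochondrial chaperone TRAP1 at 0.36 ± 0.05 and the chaperonin subunit TCP1 at -0.28 ± 0.03 (adjusted p from 0.012 to 0.016). The cullin CUL2 lay at 0.68 ± 0.09 and the deubiquitinase USP14 of the proteasome at 0.33 ± 0.04. Autophagy and lysosome genes held 11 positive and 8 negative of 51 as deposited (37.3%; 23.5% without replicate 3), among them ATP6V0D1 of the vacuolar proton pump at 0.69 ± 0.11 and the autophagy initiator RB1CC1 at -0.26 ± 0.04. After turning, 18 of 51 (35.3%) reached an unadjusted p under 0.05, and 11 of 51 (21.6%) without replicate 1, without replicate 3 and in the fit of 12 single arrays. Without replicate 2 it was 8 of 51.

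In vesicle transport the largest share came after turning. Coat proteins, RAB GTPases and SNAREs then held 10 positive and 19 negative of 71 (40.9%). The lean did not hold without replicate 1 (11 positive, 9 negative) or without replicate 2 (7 and 6, 18.3%). The 3 members that passed an adjusted p under 0.05 were positive: the COPI subunit COPA at 0.31 ± 0.04, the SNARE disassembly ATPase NSF at 0.48 ± 0.10 and its adaptor NAPA at 0.20 ± 0.04. As deposited the same list held 8 and 8 of 71 (22.5%), and 8 and 2 without replicate 3, with the early endosome GTPase RAB5A at -0.43 ± 0.05 and the COPI subunit COPE at 0.33 ± 0.06. Of actin and cytokinesis genes, 13 were positive and 9 negative of 71 as deposited, and equal numbers without replicate 1 (12 each) or replicate 2 (9 each). The membrane linker EZR lay at 0.51 ± 0.07, positive on all arrays from 0.19 to 0.68, and the formin DIAPH3 at -0.35 ± 0.06.

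Energy metabolism was mixed in both readings. Oxidative phosphorylation held 11 positive and 11 negative of 76 as deposited, and 13 positive and 4 negative after turning (3 and 1 without replicate 2, 9 and 9 without replicate 3). NDUFS8 at 0.40 ± 0.08 and NDUFS1 at -0.55 ± 0.11, both complex I subunits, stood on opposite sides as deposited. Glycolysis held 11 of 39 (28.2%) as deposited and 6 (15.4%) without replicate 3. After turning it held 15 of 39 (38.5%), and 10, 6 and 9 without replicates 1, 2 and 3. The glycolytic enzyme PGAM1 lay at -0.55 ± 0.13 and GPI at 0.31 ± 0.08 as deposited. After turning, PGLS of the pentose phosphate pathway lay at 0.33 ± 0.05, and the pyruvate dehydrogenase kinases PDK1 and PDK2 at -0.17 ± 0.04 and -0.18 ± 0.04 (adjusted p from 0.018 to 0.048). Of lipid and sterol genes, 15 of 58 reached an unadjusted p under 0.05 in each reading, and 8 as deposited without replicate 3. HADHB, of fatty acid oxidation, lay at -0.32 ± 0.04 after turning (adjusted p = 0.014).

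Genes against oxidative stress held 13 positive and 9 negative of 78 (28.2%) as deposited, and 14 positive and 10 negative (30.8%) after turning. Without replicate 3 the first became 5 and 7, and without replicates 1 and 2 the second became 9 and 5, and 9 and 4. Catalase CAT, which breaks down hydrogen peroxide, lay at -0.38, -0.93 and -0.29 with BL in Cy3 and at -0.56, -0.97 and -0.57 with BL in Cy5. All 6 values were negative, replicate 2 was lowest in both, and the fitted ratio was -0.62 ± 0.16 (adjusted p = 0.15). The mitochondrial superoxide dismutase SOD2 lay at -0.28 ± 0.08 with 6 of 6 arrays negative, and the cytosolic SOD1 at -0.60 ± 0.29 with 5 of 6 negative. Turned, CAT was -0.08 ± 0.04, SOD2 -0.02 ± 0.05 and SOD1 -0.14 ± 0.12, none past the threshold.

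NFE2L2, the transcription factor NRF2, lay at -0.53 ± 0.27 as deposited with 6 of 6 arrays negative, and its inhibitor KEAP1 at -0.06 ± 0.06. The peroxiredoxin PRDX1 lay at -0.22 ± 0.13, thioredoxin TXN at -0.22 ± 0.08 and its reductase TXNRD1 at 0.13 ± 0.06. Of the glutathione peroxidases, GPX4 lay at 0.30 ± 0.11 and GPX1 at 0.11 ± 0.06. No member of this set of 10 passed as deposited, and after turning only GPX1 did, at 0.24 ± 0.04 (adjusted p = 0.032). GPX1 stood at -0.23, -0.22 and 0.07 with BL in Cy3 and at 0.34, 0.21 and 0.52 with BL in Cy5, so the orientations did not overlap. Of the whole list of 78, 7 genes passed after turning, 6 positive and 1 negative. Besides GPX1 they were MAFK, a partner of NRF2, at 0.67 ± 0.07, the extracellular dismutase SOD3 at 0.30 ± 0.03, TXN2 at 0.51 ± 0.07, the metallothionein MT1A at 0.61 ± 0.11 and the microsomal transferase MGST1 at 0.40 ± 0.07, with the quinone reductase NQO1 at -0.28 ± 0.05. MGST1 and NQO1 were named after their values were seen.

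Signalling and cell death lists held more negative than positive members as deposited. Of Wnt, BMP and Hippo genes 5 were positive and 12 negative of 73. These became 4 and 13, 4 and 11, and 6 and 7 without replicates 1, 2 and 3, so the lean was slight without replicate 3. The receptors ACVR2A and BMPR1A lay at -0.36 ± 0.05 and -0.48 ± 0.09, and the beta-catenin regulator APC at -0.29 ± 0.06. Each of the last 3 was negative on all 6 arrays. Of apoptosis genes 3 were positive and 9 negative of 43 (2 and 5 without replicate 2, 1 and 3 without replicate 3), with the inhibitor BIRC6 at -0.30 ± 0.06. Of chromatin modifiers 11 were positive and 7 negative of 81, a lean that turned to 7 and 9 without replicate 1 or 2 and was 9 and 2 without replicate 3. WDR5, a subunit of histone methyltransferase complexes, lay at 0.92 ± 0.19 and the methyltransferase SETD1A at -0.52 ± 0.07.

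Other lists were mixed in side. As deposited, nuclear transport held 6 positive and 10 negative of 52 (30.8%; 9 and 4 without replicate 3), with the exportin XPO1 at -0.28 ± 0.04. Cytosolic ribosomal proteins held 11 and 5 of 62 (4 and 6 without replicate 2), with RPL6 at 0.56 ± 0.15. Endosomal sorting held 6 and 4 of 40, with the sorting nexin SNX2 at -0.65 ± 0.13. Amino acid and citrate cycle genes held 7 and 7 of 52, and tRNA synthetases 3 and 4 of 31, which became 4 and 0, and 1 and 1, without replicate 3. Of these, the serine pathway enzyme PSAT1 lay at 0.52 ± 0.10 and the mitochondrial synthetase MARS2 at -0.37 ± 0.08.

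Markers of other cells that a pool could carry, and of later lineages, had the smallest shares as deposited. Of cumulus and granulosa markers 1 of 35 (2.86%) reached an unadjusted p under 0.05, INHBA at 0.30 ± 0.08, but without replicate 1 it was 6 of 35 (17.1%, 5 of them negative), beside 17.5% of all genes, and without replicates 2 and 3 it was 2 and 3 of 35. Of blood and immune markers 1 of 22 (4.55%; 2 without replicate 2) did, CD3G at -0.44 ± 0.09. Of sperm and testis markers 4 of 28 (14.3%; 2 without replicate 1 or 2) did, all negative, and of blastocyst lineage markers 5 of 38 (13.2%; 3 without replicate 2 or 3), with the keratin KRT8 at 0.63 ± 0.17. After turning, 11 of 35 cumulus and granulosa markers (31.4%), 3 of 22 blood markers (13.6%), 7 of 28 sperm markers (25%) and 12 of 38 lineage markers (31.6%) did, beside 28.3% of all genes. Without replicate 2 these became 5, 1, 2 and 5, and without replicate 1 3 of the sperm markers did. The part of these markers in the other results was not tested. The ovarian factor NR5A1 lay at 0.32 ± 0.05 (adjusted p = 0.023) in that reading.

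**Figure D5:**
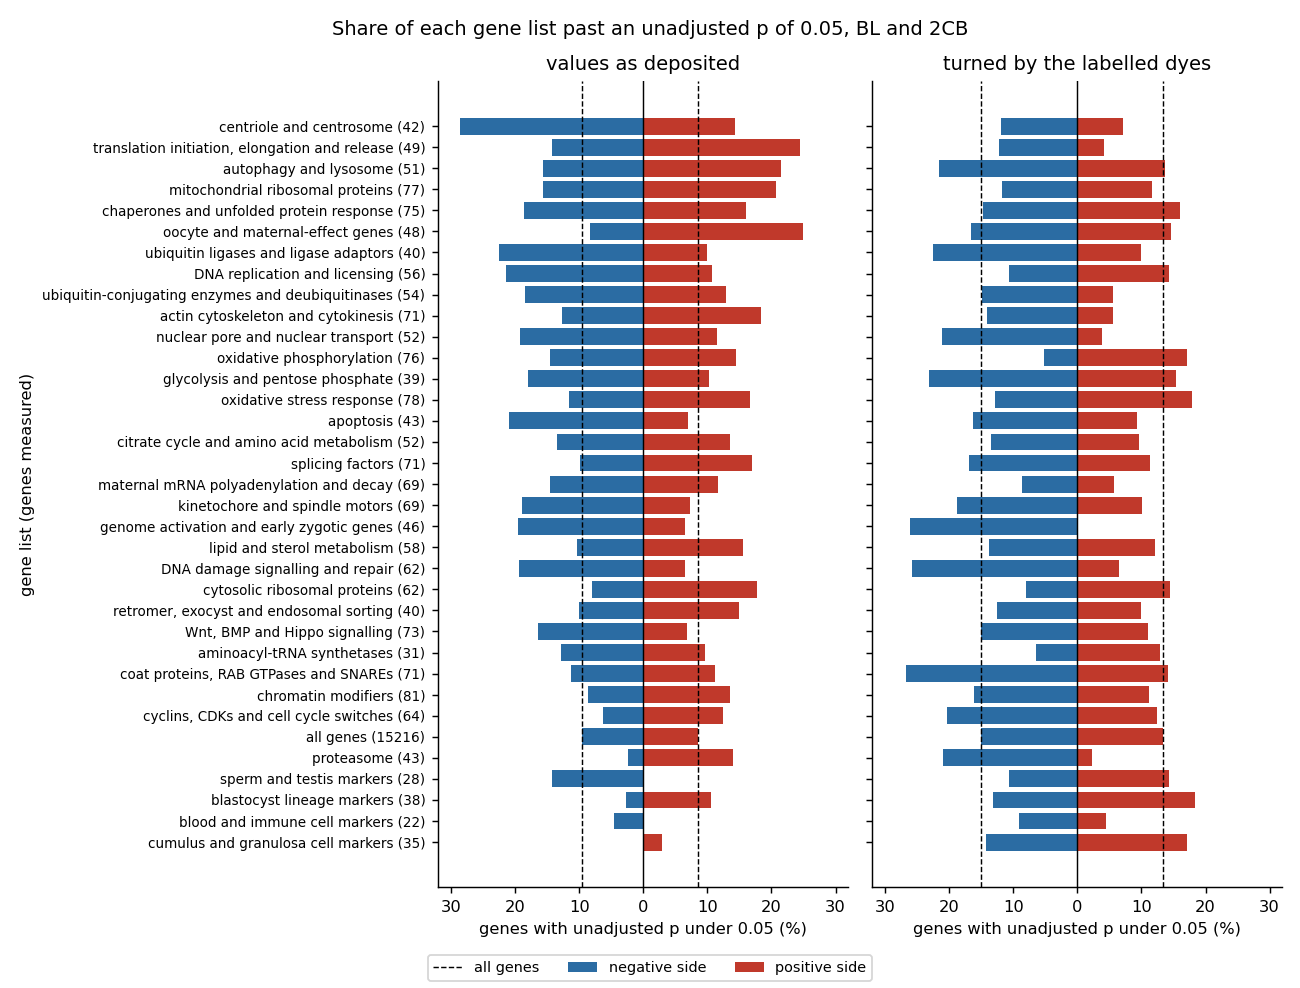
Percent of the measured genes of each list (y axis, number measured in brackets) with an unadjusted p under 0.05 on the positive (right, red) and negative (left, blue) side, as deposited and after turning by the labelled dyes. Dashed lines are all genes (8.54% and 9.48% as deposited, 13.3% and 15% after turning); centriole and centrosome genes reach 42.9% in all as deposited (11.9% without replicate 3), and cumulus and granulosa markers 2.86% (17.1% without replicate 1).

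The ratios against 8CB share the BL class with those against 2CB, so values in both are given side by side and not counted as separate support. Over all probes the difference between the ratio against 2CB and that against 8CB passed an adjusted p under 0.05 for 0 probes in each reading by limma, with 1985 probes (4.53%) at an unadjusted p under 0.05 as deposited and 423 (0.966%) after turning. All 24 genes named as deposited lay on the same side against 8CB, as did all 24 named after turning. The share of all probes on the same side was not computed, so these counts do not set the named genes apart. LYSMD2 lay at -1.25 against 2CB and at -0.25 ± 0.11 against 8CB, and the unadjusted p of that difference was 0.00074 (adjusted p = 0.94).

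VPS26A lay at -0.79 against 2CB and -0.22 ± 0.06 against 8CB, AKR1B1 at 1.05 and 0.50 ± 0.11, and CHURC1, a zinc-binding transcription factor described in chick embryos, at -0.60 and -0.28 ± 0.04. RBM42 lay at 0.76 and 0.77 ± 0.09, SFPQ at 0.53 and 0.49 ± 0.06, and E2F4 at 0.44 and 0.42 ± 0.05. Of the 24 genes, 13 had an unadjusted p under 0.05 for the difference, and none an adjusted one. Among the 24 genes named after turning, 2 had such an unadjusted p, and NAA35 lay at 1.86 against 2CB and 1.61 ± 0.11 against 8CB. Both sets were picked by small p-values against 2CB, and the difference reuses those ratios. These counts, and the p-value of LYSMD2, are therefore not separate support for a difference from 8CB. Whether any ratio is particular to 2CB was therefore not shown by these arrays.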

How the data were processed

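Per the labels, total RNA of pooled blastomeres was amplified, dye labelled and hybridised in pairs to two-colour arrays. The deposited values are log ratios, 1 for each probe on each array, taken here as log2. How the authors normalized them, which log base they used and which class is the numerator is not stated by any source used. The submitters' processing notes name limma without a version. Column medians of all 12 arrays lay from -0.0035 to 0.0096. No scanner intensities were used, so signal over background is unknown.

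The 2 orientations of each replicate were averaged, as deposited or with BL-in-Cy3 arrays turned, and all 6 averaged ratios (3 against each class) were fitted with limma 3.58.1 in R 4.3.3 (lmFit, eBayes), with Benjamini-Hochberg adjustment over 43793 probes or 15216 genes and a threshold of 0.05. Figures were drawn with matplotlib 3.10.9. Current RefSeq symbols (ARS-UCD2.0) covered 20025 probes, 1524 were updated and 241 kept the platform's symbol; no probe had several symbols and 22003 had none. Genes were named by fixed rules: 12 a side and reading by smallest p with the pattern on all 6 arrays; 10 with several probes on 1 side, each with p under 0.05; 5 by size with p under 0.01; up to 4 per list; and 10 redox genes. The comparison, rules and lists were chosen with earlier results of these data known. P-values measure only the spread between these pools.

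Replicate numbers paired the averaged ratios of the 2 comparisons as deposited (correlations of deviations 0.30, 0.39 and 0.35, each best with its own number) but not after turning (-0.24, -0.06 and -0.49). On simulated data, 51 of 100 probes changed by 0.5 and 80 of 100 changed by 1 were called as deposited, and 70 and 94 after turning. The simulated noise was independent for each probe and averaged ratio, without the pairing of replicate numbers. These counts check the fit and do not give the power in the deposited data. Alternatives were 12 single arrays with an orientation coefficient and a replicate block within comparisons, a replicate block across comparisons (chosen after seeing the data), fewer arrays, normalization, thresholds and leaving out replicates.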

Additional observations from a re-analysis of the deposited data

How the results depend on the processing

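As deposited, 336 probes passed at an adjusted p under 0.10, 1925 with 12 single arrays, an orientation coefficient and a replicate block within comparisons (consensus correlation 0.22), and 4220 with only the arrays with BL in Cy5. Class and dye cannot be told apart within a single orientation. The count was 0 at 0.05 with the averaged ratios and a replicate block across comparisons (correlation 0.32; added after seeing the data), and with only the BL and 2CB arrays, quantile normalization, arrays scaled to one spread, only BL in Cy3, only probes with a symbol, and without each replicate (0 to 0). Unadjusted p under 0.05 was reached by 17.3%, 13.5% and 8.76% of probes without replicates 1, 2 and 3. After turning, the count of 3562 became 7712 at an adjusted p under 0.10, 6176 with the 12 single arrays, orientation coefficient and block within comparisons, 3455 with the added block across comparisons (correlation -0.30), 2218 after quantile normalization and 1886 with only probes with a symbol; leaving out 1 replicate gave 0 to 1295. The cause was not tested, except that the symbol restriction tests fewer probes. The difference from 8CB stayed at 0 in each reading and with the replicate block, with 8.65% at an unadjusted p under 0.05 in the block fit. Sides turned with only BL in Cy3 for the RTN4 probe (0.0374), MRPL38 (-0.038), MOS (-0.0353), TXN (0.0142) and GPX1 (-0.127), with only BL in Cy5 for FST (0.142), and after turning for SOD2 without replicate 1 (range without 1 replicate -0.0558 to 0.0452) and KEAP1 without replicate 2 (0.00456) or 3 (range -0.0408 to 0.0167).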
